A study of Mus musculus with 12 samples.

Results

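Spi1 and 9 myeloid lineage genes (Prtn3, Mpo, Elane, Ctsg, Cebpa, Cebpb, Lyz2, Itgam and Csf1r) were followed in mouse erythroleukemia (MEL) cells with knockdown of G9a and in wild type MEL cells. The genes were chosen by symbol, and every probe set annotated to exactly 1 of these symbols was taken, whatever its level. This gave 13 of the 45037 probe sets tested, for 10 of the 18193 genes that have a probe set of their own. Cebpb was read by 2 probe sets, Csf1r by 3 and each other gene by 1. MEL cells are leukemic red cell precursors, and dimethyl sulfoxide (DMSO) makes them mature. The G9a knockdown group and the wild type group each hold 3 Affymetrix arrays, numbered 1 to 3. Per the labels' protocols, cells of both groups grew with 2% DMSO for 4 days, and the knockdown was brought about by doxycycline at 5 µg/ml. The same treatment text stands on the wild type samples, so it is not settled whether those cells also had doxycycline, and the labels name neither the knockdown construct nor whether it was 1 clone. The labels do not say whether replicates came from separate cultures. A p-value here therefore weighs a difference against array-to-array spread only, and that spread may be technical.

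Spi1 encodes PU.1, an ETS family transcription factor that drives macrophage and granulocyte development. MEL cells come from Friend virus leukemias, in which virus insertion next to Spi1 keeps the gene active in erythroid precursors. There PU.1 binds GATA1, the main erythroid factor, and each represses the other's action, and DMSO-induced maturation of these cells is known to lower Spi1. C/EBPα and C/EBPβ act with PU.1 at many myeloid promoters and enhancers. Csf1r, the receptor for macrophage colony-stimulating factor, and the genes for the granule proteins myeloperoxidase, neutrophil elastase, proteinase 3 and cathepsin G are classical targets of these factors.

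The targeted gene checked the labels first. Ehmt2, which encodes G9a, read 4.29, 4.28 and 4.16 in the knockdown arrays, against 7.43, 7.07 and 6.82 in the wild type arrays, at probe set 1426888_at (GCRMA log2 values). The brighter probe set, 1460692_at, read 6.67, 7.33 and 7.58 in the knockdown, against 9.92, 10.03 and 10.23 in wild type. Neither overlapped between the groups, and the differences were −2.86 and −2.87 (limma adjusted p = 0.131 and 0.193 over all probe sets). Over the 17028 probe sets above log2 4 in at least 3 arrays, the adjusted p were 0.0216 and 0.0719. Erythroid markers were above background in 6 of 6 measured genes, as the label of the cells implies. The arrays of number 1 appeared to stand apart. Their deviations from the group mean correlated at −0.59 to −0.36 with those of the other numbers in the other group. Numbers 2 and 3 correlated with each other across groups at 0.16 and 0.12. Taking deviations from group means makes such values negative on average, so they are a weak sign. Differences are also given without both number 1 arrays.

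The gene set divided evenly into genes that were read and genes that were not. Spi1, Cebpa, Cebpb, Csf1r and Prtn3 lay above background on all 6 arrays, at 8 of 8 probe sets. Mpo, Elane, Ctsg, Lyz2 and Itgam lay below it on all 6. Background was the 95th percentile of 126 probe sets for olfactory, vomeronasal and taste receptor and keratin-associated genes, which stood at 3.06 to 3.13 in the knockdown arrays and at 3.04 to 3.20 in the wild type arrays. Of all probe sets, 45.3% were above this line on every array. Against the highest background probe set of each array, which read 4.17 to 4.74 in the knockdown and 4.47 to 4.52 in wild type, Prtn3 was above on 4 arrays and the Csf1r probe set 1419873_s_at on 1. The other 6 probe sets stayed above on all 6. In a bulk sample, fewer cells of a type and less RNA per cell cannot be told apart, so a low level may belong to a few cells or to all of them.

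**Figure D1:**
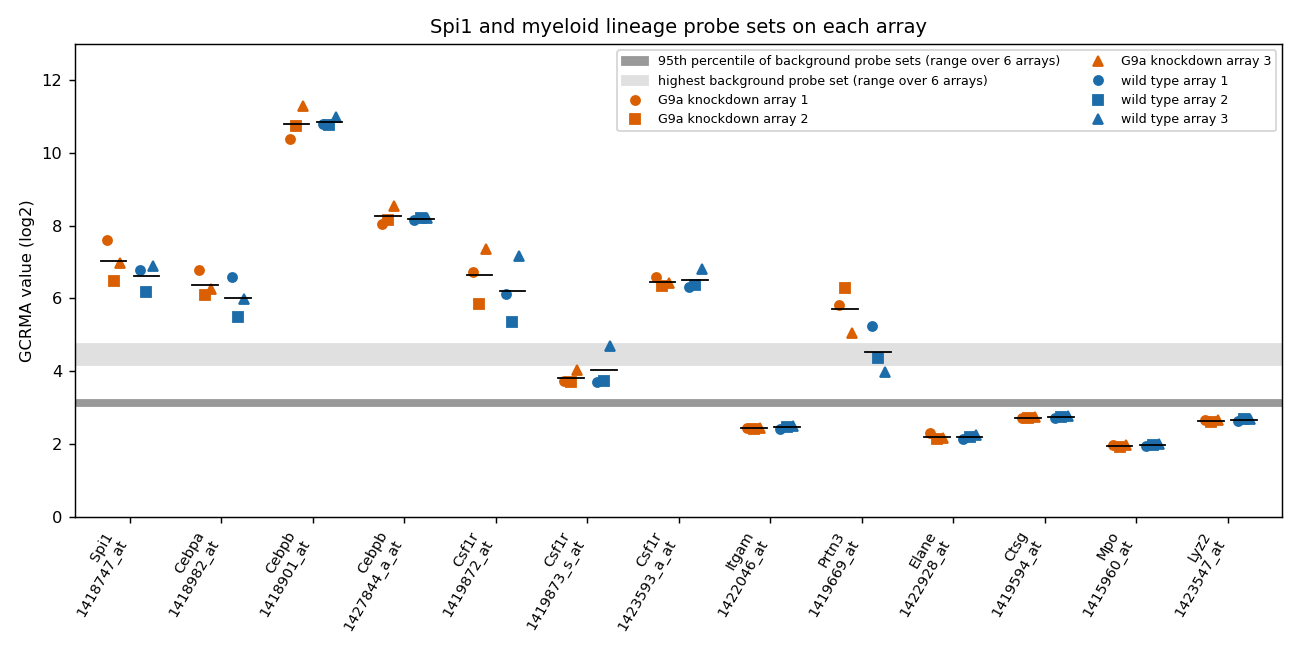
GCRMA log2 values of the 13 probe sets on each array, with G9a knockdown arrays (orange) left of wild type arrays (blue), symbols for the array number and a black line for each mean of 3 arrays. The grey bands give the range over the 6 arrays of the 95th percentile and of the highest value of the background probe sets. Itgam, Elane, Ctsg, Mpo and Lyz2 sit under the lower band in both groups, and Prtn3 straddles the upper band in wild type.

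Spi1 was expressed in both groups and averaged higher in the knockdown, by an amount between the SDs of the 2 groups. At its probe set, 1418747_at, it read 7.61, 6.49 and 6.97 in knockdown arrays 1 to 3, against 6.77, 6.17 and 6.88 in wild type arrays 1 to 3. The means were 7.02 ± 0.56 and 6.61 ± 0.39 (SD, n = 3 each). Knockdown array 1 was the highest and wild type array 2 the lowest, and the groups overlapped, since wild type arrays 1 and 3 lay above knockdown array 2. The difference was 0.42 (SE 0.34, 95% interval −0.46 to 1.29, limma adjusted p = 0.774), or 1.33-fold. Within same-numbered pairs the knockdown was above wild type in 3 of 3, by 0.84, 0.32 and 0.085. With the replicate number as a block the interval was −0.055 to 0.89 (adjusted p = 0.66). Without knockdown array 1 the difference was 0.12, without wild type array 2 it was 0.20, and without both number 1 arrays it was 0.20.

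MAS5, the second summary of the same arrays, gave Spi1 the same direction. The MAS5 intensities were 620.2, 391 and 471 in the knockdown, against 479, 297 and 433 in wild type. All 6 were above the MAS5 background lines, which were 86.9 to 89.1 in the knockdown and 66.1 to 103 in wild type. The difference on the log2(value + 1) scale was 0.30 (limma adjusted p = 1.00 without and 0.872 with the block).

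Cebpa, which encodes C/EBPα, the factor that commits progenitors to granulocytes, differed in opposite directions in the 2 summaries. In GCRMA, probe set 1418982_at read 6.78, 6.09 and 6.25 in the knockdown, against 6.60, 5.49 and 5.98 in wild type. The knockdown was above wild type within 3 of 3 pairs (by 0.19, 0.60 and 0.27), although the groups overlapped. The difference was 0.35 (SE 0.33, interval −0.50 to 1.20, limma adjusted p = 0.774), and with the block the interval was 0.077 to 0.63 (adjusted p = 0.432). In MAS5 the intensities were 565, 434 and 414 in the knockdown, against 667, 458 and 556 in wild type. There the knockdown was below wild type within 3 of 3 pairs, and the difference was −0.25 on the log2(value + 1) scale (limma adjusted p = 0.887 with the block). Of the 21739 probe sets that averaged above background, 0.432% went one way in 3 of 3 pairs in GCRMA and the other way in 3 of 3 in MAS5, a count made after the Cebpa values were seen. No direction can therefore be given for Cebpa.

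Cebpb, which encodes C/EBPβ, a factor of monocytes and of granulocyte production under stress, was read far above background by both of its probe sets. Probe set 1418901_at read 10.39, 10.73 and 11.30 in the knockdown, against 10.80, 10.78 and 10.98 in wild type. The knockdown arrays lay on both sides of all 3 wild type arrays, with array 1 lowest and array 3 highest. The SD was 0.46 in the knockdown and 0.11 in wild type. Probe set 1427844_a_at had the same order, with 8.05, 8.16 and 8.55 in the knockdown, against 8.17, 8.20 and 8.20 in wild type. The differences were −0.045 (interval −0.65 to 0.56, limma adjusted p = 0.918) and 0.065 (interval −0.28 to 0.41, adjusted p = 0.799). Leaving out knockdown array 1 gave 0.16 and 0.17, and leaving out knockdown array 3 gave −0.29 and −0.085, so the sign followed single arrays. The larger spread of the knockdown arrays was not tested.

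The 3 probe sets of Csf1r disagreed with each other. At 1419872_at, Csf1r read 6.74, 5.86 and 7.35 in the knockdown, against 6.12, 5.35 and 7.16 in wild type. The array number separated these values more than the group did, with number 2 low and number 3 high in both groups. The SD was 0.75 in the knockdown and 0.91 in wild type, and the knockdown was above wild type in 3 of 3 pairs. The difference was 0.44 (interval −1.07 to 1.94, limma adjusted p = 0.774), and the block narrowed the interval to 0.16 to 0.72 (adjusted p = 0.348). Without wild type array 2 the difference was 0.0082, and without knockdown array 3 it was 0.089.

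The probe set 1423593_a_at, also well above background, read 6.59, 6.35 and 6.41 in the knockdown, against 6.32, 6.36 and 6.81 in wild type. Its difference was −0.049 (interval −0.44 to 0.34, limma adjusted p = 0.859), with pairs on both sides of 0. The remaining, dim probe set, 1419873_s_at, read 3.73, 3.71 and 4.02 in the knockdown, against 3.71, 3.73 and 4.68 in wild type. Wild type array 3 stood alone there, and without it the difference of −0.22 became 0.095. In MAS5 the 3 differences were 0.16, −0.14 and −0.26 in the order of these sentences. No direction across probe sets could be given for Csf1r.

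Itgam, which encodes the integrin αM chain (CD11b) of macrophages and neutrophils, was below background throughout. It read 2.40 to 2.44 in the knockdown and 2.42 to 2.49 in wild type, and its MAS5 intensity was at most 15.1 in the knockdown and 12.5 in wild type.

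**Figure D2:**
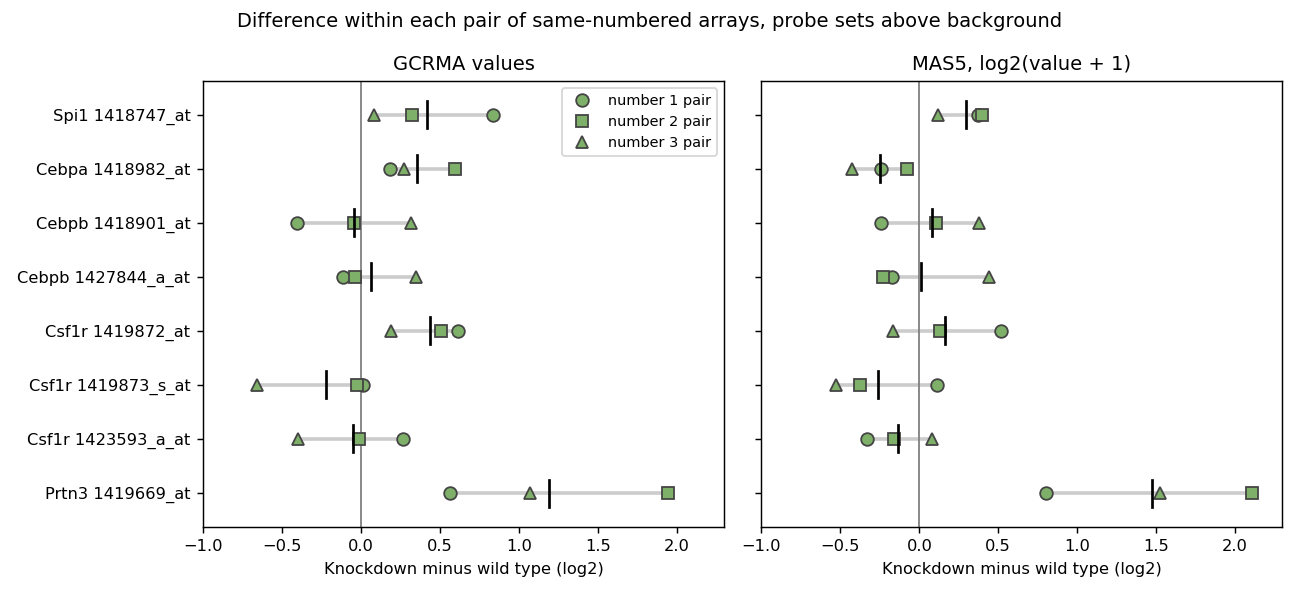
Knockdown minus wild type within each pair of same-numbered arrays, on the log2 scale, for the 8 probe sets above background, in GCRMA (left) and MAS5 as log2(value + 1) (right). Points are the 3 pairs, grey bars their range and black ticks their mean. Spi1 and Prtn3 lie above 0 in all pairs of both summaries, and Cebpa changes side.

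Prtn3 had the largest difference of the gene set, and among the granule protein genes of this set it alone was above background in GCRMA. It encodes proteinase 3, a serine protease of the primary granules of granulocyte precursors. Probe set 1419669_at read 5.82, 6.30 and 5.04 in the knockdown, against 5.25, 4.35 and 3.97 in wild type. The means were 5.72 ± 0.64 and 4.52 ± 0.66 (SD, n = 3 each). Knockdown arrays 1 and 2 were above all 3 wild type arrays, and knockdown array 3 lay just below wild type array 1. The difference was 1.19 (SE 0.46, interval 0.020 to 2.37), or 2.29-fold, and it did not pass the threshold over all probe sets (limma adjusted p = 0.774). Within pairs it was 0.56, 1.95 and 1.07, positive in 3 of 3.

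With the replicate number as a block the interval was 0.35 to 2.04 (limma adjusted p = 0.386), and in the filtered set with the block it was 0.53 to 1.86 (adjusted p = 0.21). Without any single array the difference was between 0.90 and 1.56, and without both number 1 arrays it was 1.51. The MAS5 intensities were 229.9, 328 and 111 in the knockdown, against 132, 75.5 and 37.8 in wild type. All 3 knockdown arrays and wild type array 1 were above the MAS5 background line of their array, and wild type arrays 2 and 3 were under it. The MAS5 difference was 1.48 on the log2(value + 1) scale (adjusted p = 0.964, and 0.779 with the block). Values this close to background in wild type limit what a fold can say.

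Prtn3 and Elane, which encodes neutrophil elastase, are next to each other on mouse chromosome 10, in the same orientation. The 250 bases before the start of each gene are shown, since in GCRMA Prtn3 was above background and Elane below it. Both windows hold the letters AGGAAGT, a core bound by ETS factors of the PU.1 class. Mpo is shown as a granule gene of another chromosome with the same letters. Sequences are from RefSeq, assembly GRCm38.p6, plus strand, 5′ to 3′, and capitals mark AGGAAGT.
Prtn3, chr10:79879417-79879666: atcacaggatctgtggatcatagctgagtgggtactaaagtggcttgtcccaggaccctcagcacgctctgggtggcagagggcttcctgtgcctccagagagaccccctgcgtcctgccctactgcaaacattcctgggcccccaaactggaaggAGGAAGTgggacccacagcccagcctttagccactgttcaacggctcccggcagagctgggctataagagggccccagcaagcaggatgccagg
Elane, chr10:79886062-79886311: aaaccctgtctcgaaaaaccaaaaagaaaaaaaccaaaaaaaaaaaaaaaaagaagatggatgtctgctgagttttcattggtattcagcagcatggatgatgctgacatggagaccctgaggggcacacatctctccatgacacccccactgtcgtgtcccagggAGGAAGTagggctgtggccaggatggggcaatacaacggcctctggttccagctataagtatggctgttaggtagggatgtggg
Mpo, chr11:87793534-87793783: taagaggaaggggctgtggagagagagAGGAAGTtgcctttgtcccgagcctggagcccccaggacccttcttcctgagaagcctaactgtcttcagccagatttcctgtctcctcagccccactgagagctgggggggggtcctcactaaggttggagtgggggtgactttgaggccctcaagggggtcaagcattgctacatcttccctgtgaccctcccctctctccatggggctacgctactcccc

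The match ended 88 bases before the start in Prtn3 and 78 in Elane, and 217 in Mpo. RefSeq's promoter table held 8 of the 10 genes, without Spi1 and Csf1r. AGGAAGT, searched on both strands, was in 5 of these 8 windows (Prtn3, Elane, Mpo, Ctsg and Lyz2), against 7.69% of 32851 promoter windows of the same length. Of these 5 genes, Prtn3 was above background in GCRMA and the other 4 were below it. In MAS5 the split was less clear, with Prtn3 above the line on 4 of 6 arrays and Elane on 3 of 6. The C/EBP letters TTNNGNAA were in 2 of the 8 (Itgam and Lyz2), against 36.8% of all windows, and the RUNX letters TGTGGT in 2 (Lyz2 and Ctsg), against 14%. The GATA letters AGATAA were in 0 of the 8, against 9.99%. These matches describe letters in a window and show no binding.

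Elane itself read 2.31, 2.12 and 2.17 in the knockdown, against 2.15, 2.18 and 2.23 in wild type, below background on every array. In MAS5 it read 115, 22.8 and 96.5 in the knockdown, against 65.4, 31.5 and 118 in wild type, and was above the MAS5 line on 3 of 6 arrays. Cathepsin G (Ctsg), another serine protease of the same granules, read 2.70 to 2.73 in the knockdown and 2.70 to 2.78 in wild type. Myeloperoxidase (Mpo), the enzyme that makes hypochlorous acid in these granules, read 1.92 to 1.96 in the knockdown and 1.94 to 2.00 in wild type. Lyz2, the lysozyme gene of macrophages and granulocytes, read 2.60 to 2.65 in the knockdown and 2.64 to 2.69 in wild type. The MAS5 intensities of Ctsg, Mpo and Lyz2 were under the MAS5 line on all 6 arrays.

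The 5 genes below background varied little between arrays in GCRMA, over a range of 0.074 to 0.19 on the log2 scale. Wild type array 3 was the highest for 4 of them, all but Elane, and it also had the highest median over all probe sets (3.10, against 3.01, 2.99 and 3.01 in the knockdown and 2.99 and 3.03 in the other wild type arrays). After subtraction of each array's median, the range was 0.038 to 0.17. The differences were −0.033 to 0.016 (limma adjusted p 0.774 to 0.88). In MAS5 the same genes varied more, with Ctsg at 3.67 to 36.8 over the 6 arrays. Their MAS5 differences were −0.95 to 0.43 on the log2(value + 1) scale. The small GCRMA range is therefore not read as steady expression. With both groups below the GCRMA background no fold is given.

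No member passed the threshold. In the limma fit over 45037 probe sets, 0 of the 13 had an adjusted p under 0.05, and neither did any other probe set (0%). At an unadjusted p under 0.05 there was 1 of 13 (Prtn3), against 3.72% of all probe sets, or 1 of the 8 above background, against 7.55% of the 21739 that averaged above it. With the replicate number as a block 0 of 13 passed (0% of all probe sets), and 3 of the 13 had an unadjusted p under 0.05 (Prtn3, Cebpa and Csf1r at 1419872_at), against 8.62% of all probe sets. These 3 were among the 8 above background, against 17.6% of the probe sets averaging above it. Of the 7 that were above log2 4 in at least 3 arrays, 0 passed without the block (0.00587% of 17028 probe sets, the 1 being Ehmt2) and 0 with it (0.0117%). At an unadjusted p under 0.05 there were 1 of 7 without the block, against 5.87%, and 4 of 7 with it, against 13.7%. In MAS5 0 of 13 passed with or without the block (0% of all probe sets in both). At an unadjusted p under 0.05 there were 0 of 13 without the block, against 5.28%, and 1 of 13 with it (Prtn3), against 6.13%.

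The groups overlapped at all 8 probe sets above background, whereas among those averaging above it 4.05% had every knockdown array above every wild type array and 6.66% every one below. The knockdown was higher in 3 of 3 pairs at 4 of the 8 (Spi1, Cebpa, Csf1r at 1419872_at and Prtn3), against 14.2% of probe sets. It was lower in 3 of 3 pairs at 0, against 18.3%. In MAS5 the counts were 2 higher (Spi1 and Prtn3), against 17.3%, and 1 lower (Cebpa), against 15.6%. The probe sets share the same 3 pairs of arrays, so they are not independent of each other. At the brightest probe set of each of the 5 genes above background, the median difference was 0.35, with 3 positive and 2 negative, beside −0.021 over the 10797 genes above background. That 0.35 is the value of Cebpa, for which no direction can be given. Csf1r counted as negative at 1423593_a_at (mean 6.47 over the 6 arrays), while 1419872_at, at a mean of 6.43, gave 0.44. In MAS5 the medians were 0.079 and 0.015.

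Other genes of the granule program were in part below background, and none passed the threshold. Of all 18193 genes, 10797 averaged above background at their brightest probe set, and 44.4% of these had a positive difference. The counts of this list and the next ones stand beside these shares. The genes named from each list are mainly those with its lowest p, a choice that favours groups that do not overlap. Among all probe sets averaging above background, 4.05% had every knockdown array above every wild type array and 6.66% every one below. Of 10 further genes of primary granules and granulocyte precursors, 8 had a probe set, 5 averaged above background and 0 passed in either direction (median difference 0.021, and −0.097 in MAS5). Serpinb1a, an inhibitor of these granule proteases, read 5.999, 5.23 and 5.29 in the knockdown, against 6.79, 5.92 and 5.49 in wild type. It was lower in 3 of 3 pairs, opposite to Prtn3, with a difference of −0.56 (limma adjusted p = 0.774, and 0.383 with the block), and its dimmer probe set, 1448301_s_at, gave −0.25. Ctsc, the protease that activates proteinase 3, elastase and cathepsin G, differed by 0.10 (1416382_at, adjusted p = 0.843) and by 0.26 (1437939_s_at, adjusted p = 0.774). Srgn, the proteoglycan that packs granules, differed by 0.033 (adjusted p = 0.921).

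Of 20 genes of later granules and mature neutrophils, 17 had a probe set and 3 averaged above background, again with 0 passing (median difference 0.058, and 0.50 in MAS5). Ncf4, a cytosolic subunit of the phagocyte oxidase, read 7.70, 8.06 and 7.66 in the knockdown, against 7.16, 7.44 and 7.37 in wild type. These groups did not overlap, and the difference was 0.49 (limma adjusted p = 0.774, and 0.266 with the block). Cyba, a membrane subunit of the oxidase that many cell types express, differed by 0.058, and Lcn2, an iron-siderophore binding protein of neutrophils, by −0.030 near background (adjusted p = 0.904 and 0.774).

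Of 26 monocyte and macrophage genes, 25 had a probe set, 8 averaged above background and 0 passed (4 positive and 4 negative, median 0.0078). In MAS5 the same 8 were 6 positive and 2 negative, with a median of 0.89 on the log2(value + 1) scale, so the balance of this list depended on the summary. Cx3cr1, Msr1 and Fcgr3, positive in MAS5 by 0.72, 1.06 and 1.22, averaged only 3.13, 3.36 and 3.53 in GCRMA, near the background line. The MAS5 median thus rests in part on values near background. Among brighter genes, Itgb2 (mean 8.03) and Fcer1g (5.56) were negative in both summaries, and Lst1 (4.78) was positive in both. Fcgr1, the high-affinity IgG receptor, read 4.96, 3.76 and 4.43 in the knockdown, against 3.40, 3.48 and 3.09 in wild type. The groups did not overlap, the difference was 1.06, and wild type array 3 was under the background line (limma adjusted p = 0.774). Fcer1g, the shared signalling chain of Fc receptors, went the other way, with 4.78, 5.56 and 4.78 in the knockdown, against 5.45, 5.37 and 7.42 in wild type. Its difference of −1.04 (adjusted p = 0.774) was −0.37 without wild type array 3. Lst1, a leukocyte transmembrane adaptor, differed by 0.48 (adjusted p = 0.774, and 0.251 with the block).

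Of 17 myeloid transcription factors other than the C/EBP and Spi1 genes above, 15 had a probe set and 11 averaged above background. These 11 were 8 positive and 3 negative, beside 44.4% positive over all genes above background. Their median was 0.16 (0.20 in MAS5), with 0 passing. Cebpg, a C/EBP family member without a strong activating domain of its own, read 9.55, 9.57 and 9.63 in the knockdown, against 8.91, 8.99 and 9.09 in wild type, at 1425262_at. The groups did not overlap, and the difference was 0.58 (SE 0.053, limma adjusted p = 0.205), but 1425261_at and 1451639_at gave 0.18 and 0.074, with overlapping groups. Egr1, an immediate early factor that acts downstream of PU.1 in the macrophage program, read 7.17, 7.31 and 7.36 in the knockdown, against 6.75, 6.50 and 6.69 in wild type. Its difference was 0.63 (limma adjusted p = 0.422), and that of Nab2, a corepressor of EGR factors, was 0.48 (adjusted p = 0.774), both without overlap in GCRMA. In MAS5 Nab2 read 283, 286 and 247 in the knockdown, against 216, 224 and 273 in wild type, so its groups overlapped there. The MAS5 differences were 0.39 for Egr1 and 0.20 for Nab2 on the log2(value + 1) scale.

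ETS family relatives of Spi1 were divided. Of 22 listed, 21 had a probe set and 13 averaged above background. These 13 were 7 positive and 6 negative, with a median of 0.0048 (−0.037 in MAS5) and 0 passing. The repressor Erf differed by 0.54, Gabpa, a widely expressed activator, by −0.31 and −0.37 at its 2 probe sets, and Etv6, a repressor needed in blood stem cells, by 0.27 and −0.053 at its 2 (limma adjusted p 0.774 to 0.794). Among 12 myeloid cytokine receptors 8 averaged above background and 0 passed, with differences between −0.068 and 0.13 at the brightest probe set of each gene (median 0.065, and 0.052 in MAS5). Csf2rb, the shared β chain of the receptors for granulocyte-macrophage colony-stimulating factor and interleukin 3, read 14.002, 13.72 and 13.71 in the knockdown, against 13.36, 13.79 and 13.96 in wild type. Its groups overlapped (difference 0.11, adjusted p = 0.776). Il6ra, the interleukin 6 receptor chain, differed by 0.079. Il6st, its signalling partner, differed by −0.068 at its brightest probe set, 1437303_at, and by −0.20, −0.55 and −0.028 at 1452843_at, 1460295_s_at and 1421239_at (limma adjusted p = 0.774 each). With 1 array left out, 1460295_s_at ranged from −0.80 to −0.057. Probe set 1421239_at read only 3.16 to 3.25 over the 6 arrays, just over background.

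**Figure D3:**
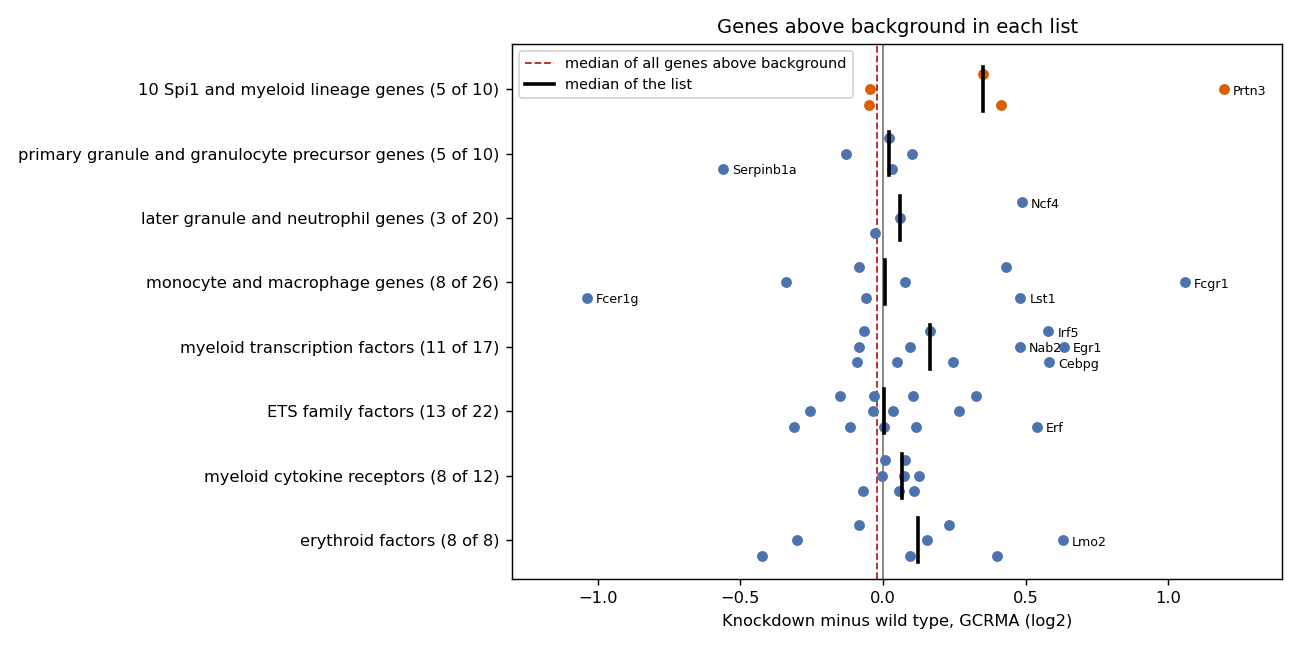
Knockdown minus wild type in GCRMA (log2) for the genes of each list that averaged above background, 1 point per gene at its brightest probe set, with the number of such genes of the number listed. Black bars are list medians and the dashed line is the median of all genes above background, −0.021. Prtn3 at 1.19 and Fcgr1 at 1.06 lie farthest right and Fcer1g at −1.04 farthest left.

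Gata1, the erythroid factor that PU.1 opposes, read 13.72, 13.38 and 13.12 in the knockdown, against 13.40, 13.26 and 13.09 in wild type. The difference was 0.15 (interval −0.29 to 0.59, limma adjusted p = 0.774), and the knockdown was above wild type in 3 of 3 pairs, as it was for Spi1. Of 8 erythroid factors, 8 were above background, 5 were positive and 0 passed, with Lmo2 at 0.63, Ldb1 at 0.23 and Gata2 at −0.42 (adjusted p = 0.774 each).

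Markers of other cell types were compared as summed MAS5 intensities of each list. The erythroid sum was 58396 to 64291 in the knockdown and 49727 to 54888 in wild type, and the megakaryocyte sum, with 5 of 7 genes above background, was 8802 to 12592 in the knockdown and 13280 to 19534 in wild type. Most of the megakaryocyte sum was the integrin gene Itga2b, at 7580 to 10499 in the knockdown and 11041 to 17717 in wild type. Itga2b differed by −0.71 in GCRMA (limma adjusted p = 0.774). The other megakaryocyte genes above background differed by 0.29 (Gp5), −0.12 (Pf4), −0.17 (Gp1bb) and −0.48 (Gp9), so the sum mainly describes Itga2b. Lymphoid markers summed to 209.5 to 349 in the knockdown and 104 to 202 in wild type, with 1 of 8 genes above background. That gene, Ms4a1, differed by −0.099 in GCRMA, opposite to the sum, which is mostly signal of genes below background and is not read as a difference in lymphoid markers. Mast cell and basophil markers had 0 of 6 above background and summed to 123 to 216 in the knockdown and 112 to 182 in wild type, and fibroblast and endothelial markers had 2 of 8, at 304 to 532 in the knockdown and 271 to 544 in wild type. The erythroid, megakaryocyte and lymphoid sums did not overlap between the groups, but a sum follows its brightest genes, and the lymphoid genes were mostly below background. In GCRMA the groups overlapped at Klf1, Alas2, Gata1 and both probe sets of Epb42, and Slc4a1 differed by −0.16. Among single probe sets above background, 4.05% had every knockdown array above every wild type array and 6.66% every one below. No such share was computed for sums. The part of these markers in the myeloid values was not tested.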

How the data were processed

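RNA of 3 G9a knockdown and 3 wild type hybridizations was deposited in 2 summaries, so 12 columns stand for 6 arrays. The deposited GCRMA columns hold log2 values (0.69 to 16.4), and the deposited MAS5 columns hold linear intensity scaled by the authors to a 2% trimmed mean of 500 on each array, as the values show. The software versions behind both summaries are not stated in the labels or headers used here. Gene names came from the platform annotation (1 gene for 34945 probe sets, several for 932, none for 9160), with 64 control probe sets left out. The files name no build, so no coordinates of probe sets are given.

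Knockdown minus wild type was fitted on the GCRMA values of all 45037 probe sets without a filter, with limma 3.58.1 in R 4.3.3 (group only, Benjamini-Hochberg, threshold 0.05). MAS5 was fitted as log2(value + 1). The pipeline was tested on simulated data. Same-numbered arrays deviated together across groups (correlations 0.71, 0.57 and 0.37, against −0.59 to 0.16 for other numbers). Deviations were taken from each group's mean, so positive same-number values make the others negative on average. The other-number values are thus no independent support. By the same-number values the numbers appear to pair the arrays, and fits with the number as a block are given. The members, gene lists and tests were chosen with earlier results of these data known. The text names every member probe set, Ehmt2, Gata1 and, from each other list, up to 3 genes above background with the lowest p, but gives markers mostly as sums. Cx3cr1, Msr1, Fcgr3 and Itgb2 are also named, for their level. The number of arrays limits the precision.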

Additional observations from a re-analysis of the deposited data

How the results depend on the processing

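None of the 13 member probe sets was called under any of the 19 alternatives used (15 for probe sets that the filters removed), and Spi1, Prtn3 and Csf1r at 1419872_at kept a positive difference in all of them (0.12 to 0.96, 0.90 to 1.56 and 0.0082 to 1.32). Across the array the count called was 0, and it became 1 with either filter at log2 4 or with an intensity trend, 2 with the filter and the replicate block, and 28 with array weights set gene by gene and 3 with array weights on the filtered set (both chosen after seeing the data). The block on all probe sets left it at 0 and changed no member's call. The default array weights did not converge on all probe sets and gave wild type array 2 a weight of 479.6, against 0.0873 to 1.22 for the other 5, so that planned setting was not used. It rests on nearly 1 wild type array, and it alone put members past the threshold: it called 3408 probe sets, among them Spi1 (1.11, limma adjusted p = 0.0427), Prtn3 (1.26, adjusted p = 0.037), Cebpa (1.04, adjusted p = 0.0365) and Csf1r at 1419872_at (1.49, adjusted p = 0.0416).

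Cebpa turned to −0.25 in MAS5, with or without the block, and to −0.23 with a pseudocount of 32. Cebpb at 1418901_at turned to 0.079 in MAS5, with or without the block, to 0.078 with a pseudocount of 32 and to 0.13 without both number 1 arrays. With 1 array left out it ranged from −0.29 to 0.16, and Cebpb at 1427844_a_at from −0.085 to 0.17. Csf1r at 1419873_s_at and at 1423593_a_at turned to 0.044 and 0.11 with gene by gene weights, and ranged from −0.39 to 0.095 and from −0.14 to 0.11 with 1 array left out. The causes were not tested. The median difference over all probe sets tested lay between −0.044 and 0.023 in the settings used.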
